A study of Mus musculus with 19 samples.

Results

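The long noncoding RNAs Malat1, Meg3, Snhg11, Rian, Mirg and Neat1, which neurons express, were followed through pools of severed dendrites. These 6 were chosen by name, with earlier results of these data known. They made up 6 of the 18193 genes and 28 of the 45037 probe sets on the array. Malat1 was read by 7 probe sets, Meg3 by 11, Rian by 4, and Snhg11, Mirg and Neat1 by 2 each. The dendrites were cut from hippocampal neurons, labelled as pyramidal neurons, that had been grown for 14 days in primary culture from E18 mouse embryos and had received no treatment. The Balb/c strain gave 5 arrays, of 2 pools of 100 dendrites, 1 of 200 and 2 of 400. The C57BL/6 strain gave 14 arrays, of 4 pools of 100, 5 of 200 and 5 of 400. Axons cannot be told from dendrites by eye during collection, so a pool can hold some axonal RNA. C57BL/6 200-1 stands for replicate 1 of the C57BL/6 pools of 200 dendrites, and the other arrays are named likewise.

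A long noncoding RNA is a long transcript that is not translated, and many act inside the nucleus where they are made. Malat1 collects in nuclear speckles, the stores of splicing factors, and Neat1 is the scaffold of paraspeckles, nuclear bodies that hold RNA-binding proteins. Meg3, Rian and Mirg are transcribed from the maternal chromosome of the imprinted Dlk1-Dio3 domain and are abundant in brain. Rian hosts small nucleolar RNAs and microRNAs, Mirg hosts a large microRNA cluster, and Snhg11 is a small nucleolar RNA host gene expressed in neurons. Such RNAs are expected mostly in the cell body. Whether they gauge cell-body RNA here was not tested, since no array of cell bodies was analysed here.

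In the RefSeq table of assembly GRCm38.p6 all 6 were annotated as long noncoding RNA. Malat1 and Neat1 were close neighbours on chromosome 19, with 1 other listed gene between them, Mascrna, the small RNA processed from the Malat1 transcript. Meg3, Rian and Mirg were on chromosome 12 and Snhg11 was on chromosome 2. The table placed 1 microRNA hairpin inside Meg3 (Mir770), 3 inside Rian (Mir1188, Mir341 and Mir370) and 10 inside Mirg. The start regions of the 3 genes that were lower in Balb/c are given for reference, from RefSeq on GRCm38.p6. Each runs from 250 bases before the start to 50 after it, 5′ to 3′ on the gene's strand, and capitals mark the cyclic AMP response element half-site TGACG or its reverse complement CGTCA. They are chr19:5802623-5802922 on the minus strand for Malat1, chr12:109540746-109541045 on the plus strand for the first of 2 listed Meg3 promoters, and chr2:158375463-158375762 on the plus strand for Snhg11.
Malat1: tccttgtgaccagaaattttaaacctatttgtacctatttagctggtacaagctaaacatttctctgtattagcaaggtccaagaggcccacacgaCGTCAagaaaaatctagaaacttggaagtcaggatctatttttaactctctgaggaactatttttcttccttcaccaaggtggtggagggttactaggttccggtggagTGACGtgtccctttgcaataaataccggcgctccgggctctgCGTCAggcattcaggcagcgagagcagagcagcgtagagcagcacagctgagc
Meg3: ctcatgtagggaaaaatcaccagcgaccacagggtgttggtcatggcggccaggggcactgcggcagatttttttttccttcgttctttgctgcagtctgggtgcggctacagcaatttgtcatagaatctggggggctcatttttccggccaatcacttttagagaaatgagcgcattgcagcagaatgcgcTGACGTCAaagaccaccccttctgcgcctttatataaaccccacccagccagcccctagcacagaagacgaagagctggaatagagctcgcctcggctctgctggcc
Snhg11: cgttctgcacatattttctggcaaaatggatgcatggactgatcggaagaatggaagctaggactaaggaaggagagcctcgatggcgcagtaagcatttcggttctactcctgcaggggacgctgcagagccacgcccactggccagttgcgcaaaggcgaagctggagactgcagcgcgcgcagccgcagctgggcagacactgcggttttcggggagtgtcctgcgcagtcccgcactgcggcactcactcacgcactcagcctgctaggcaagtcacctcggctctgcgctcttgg
The Malat1 region held 3 half-sites and the Meg3 region 2, which overlap in the full palindrome TGACGTCA, while Snhg11, Rian, Mirg and the second Meg3 promoter held 0. Of all 32851 promoters of this length in the table, 20.8% held at least 1 half-site and 5.0% held 2 or more. The TATA box core TATAAA was searched on the gene's strand only. It was in the first Meg3 promoter and not in the second, nor in those of Malat1, Snhg11, Rian and Mirg, against 8.3% of all promoters. No Neat1 promoter was analysed here. These matches describe the sequence only.

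Expression values are log2 values per probe set, and a gene's value is the median of its probe sets. Over all genes 32.5% were called between the strains (limma, Benjamini-Hochberg adjusted p under 0.05), 11.4% lower in Balb/c and 21.1% higher, and the median over genes of the difference, Balb/c minus C57BL/6, was 0.216. Differences are given relative to that median gene unless stated otherwise, while tests were run on the deposited values. It is not stated whether the pools were taken from different cultures or animals, and a p-value here covers pool-to-pool spread only. C57BL/6 200-1, C57BL/6 400-1 and Balb/c 200-1 were treated as lying between the strains in overall profile, a placing that was not tested here. The Actb controls read both ends of that mRNA, and their 3′ signal minus their 5′ signal, a sign of the length of amplified RNA, ran from −0.69 to 2.27 in Balb/c and from 1.17 to 5.56 in C57BL/6, with the lowest C57BL/6 values in 200-1 (1.17) and 400-1 (1.65). For the Gapdh controls the same measure did not set the strains apart, at 1.48 to 4.72 in Balb/c and 2.39 to 5.00 in C57BL/6, with 200-1 the highest (5.00). A set of 9 columns, all 5 Balb/c and C57BL/6 100-1, 100-2, 200-1 and 400-1, had values of up to 14 decimals and the other 10 up to 9, which was treated as a batch named number format.

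Malat1, Meg3 and Snhg11 were lower in Balb/c, Rian was higher, and Mirg and Neat1 were not called. Thus 3 of the 6 genes were called lower, against 11.4% of all genes, and 1 was called higher, against 21.1%. Since the 6 were chosen with earlier results of these data known, these shares describe the genes and do not test them as a set. With the number format as a block 0 of the 6 were called, against 1.92% of all genes. All Balb/c columns were long-format, so the block sets them against the 4 long-format C57BL/6 arrays alone. Among those, C57BL/6 200-1 and 400-1 were treated as lying between the strains in overall profile. A difference between strains on these pools can reflect fewer nuclei or cell bodies caught in a pool or less of the RNA per cell, and these cannot be told apart. The match of the probes to Balb/c sequence was not analysed here.

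**Figure D1:**
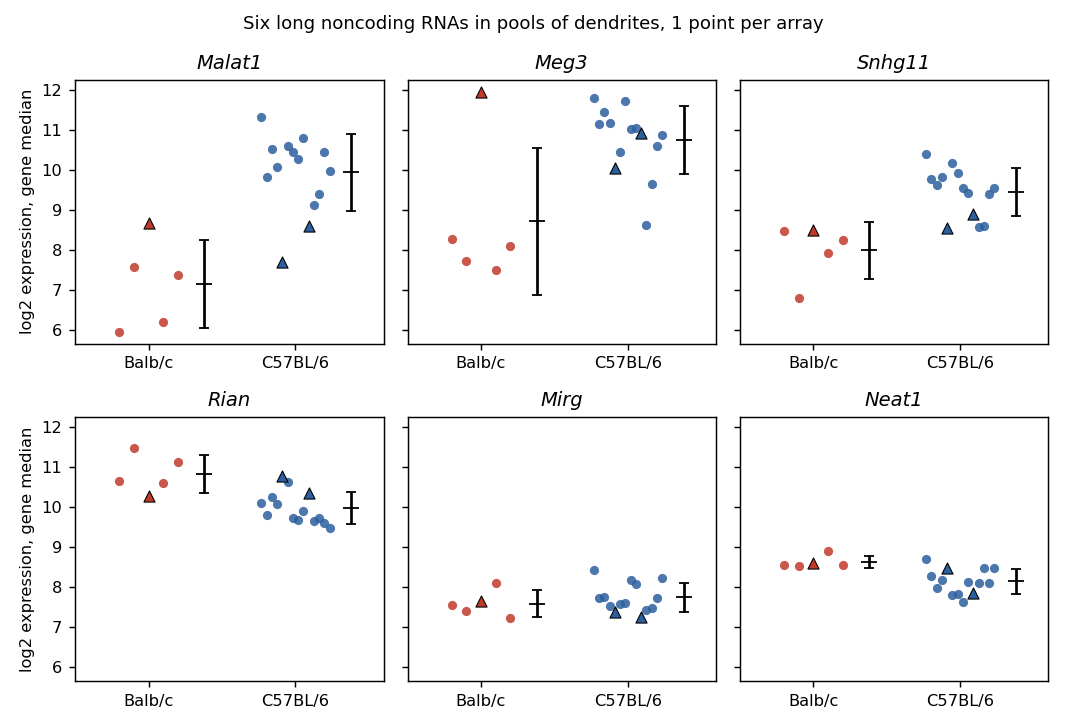
Gene values (log2, median of probe sets) of the 6 long noncoding RNAs, with 1 point per array for the 5 Balb/c (red) and 14 C57BL/6 (blue) arrays. Triangles mark the 3 arrays treated as lying between the strains (C57BL/6 200-1 and 400-1, Balb/c 200-1), and bars show mean ± SD. Snhg11 separated the strains in its gene value, narrowly (8.49 against 8.54), while neither of its probe sets did. For Meg3 the single array Balb/c 200-1, at 11.94, lay above every C57BL/6 array.

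Malat1 was at 5.95, 7.57, 8.66, 6.18 and 7.36 in Balb/c 100-1, 100-2, 200-1, 400-1 and 400-2. In C57BL/6 the lowest array was at 7.70, the median at 10.16 and the highest at 11.31. The 4 Balb/c arrays other than 200-1 lay below every C57BL/6 array, and the lowest C57BL/6 arrays, 200-1 at 7.70 and 400-1 at 8.58, reached into the Balb/c range. Means were 7.15 ± 1.10 (SD, n = 5) and 9.93 ± 0.95 (SD, n = 14), a difference of −3.00 ± 0.47 (SE; limma adjusted p = 0.000341). An exact two-sided permutation test over 11628 splits of the arrays, of the mean difference scaled by each strain's own variance, gave p = 0.000344. As deposited the difference was −2.78, and −2.20 with the number format as a block (limma adjusted p = 0.0518).

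The gene value of Malat1 hid a wide split among its probe sets. The call was carried by 1418188_a_at, 1418189_s_at, 1438403_s_at and 1436202_at, and 3 of these 4 have a suffix that the manufacturer gives to sets matching several transcripts. The suffixes _a_at, _s_at and _x_at were treated alike and called ambiguous, whether the transcripts were of 1 gene or of several. Without the probe sets of such suffixes, leaving 3, Malat1 differed by −0.27 as deposited (limma adjusted p = 0.694).

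Probe set 1418189_s_at gave 5.01, 3.76, 11.59, 3.84 and 8.48 in Balb/c 100-1, 100-2, 200-1, 400-1 and 400-2. In C57BL/6 it ran from 10.82 (200-1) over a median of 14.93 to 15.65. The strains overlapped through Balb/c 200-1 and C57BL/6 200-1, and Balb/c spread from 3.76 to 11.59. The difference relative to the median probe set, itself 0.252 higher in Balb/c, was −8.18 ± 0.93 (SE; limma adjusted p = 2.74e-05 over all probe sets). 1418188_a_at, which was designed from the same source sequence, gave 5.39, 4.66, 6.71, 3.84 and 4.96 in Balb/c. In C57BL/6 it was at 6.30 in 200-1 and 7.25 in 400-1 and ran from 11.24 to 13.85 in the other 12 arrays. All 5 Balb/c arrays and these C57BL/6 arrays therefore lay below the other 12. Its difference was −6.94 ± 0.94 (SE; limma adjusted p = 9.01e-05). Most of these Balb/c values lay below the lowest array median of 6.62, so background can bound the size of the difference.

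1438403_s_at differed by −4.94 ± 0.67 (SE) and 1436202_at by −2.01 ± 0.66. The remaining 3 Malat1 probe sets were not called. 1429060_at differed by −0.62, and 1427285_s_at and 1452378_at, which share 1 source sequence, by 0.72 and 0.81. The highest value of 1427285_s_at came from Balb/c 100-2, at 12.13 against 5.54 to 6.33 in the other 4 Balb/c arrays. 1452378_at was at 9.68 to 11.38 in Balb/c and 7.80 to 11.06 in C57BL/6, and its limma adjusted p was 0.0567. Probe sequences were not given here, so the place of each probe set on the transcript is unknown, and the part of the Actb 3′ to 5′ difference in this split was not tested.

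**Figure D2:**
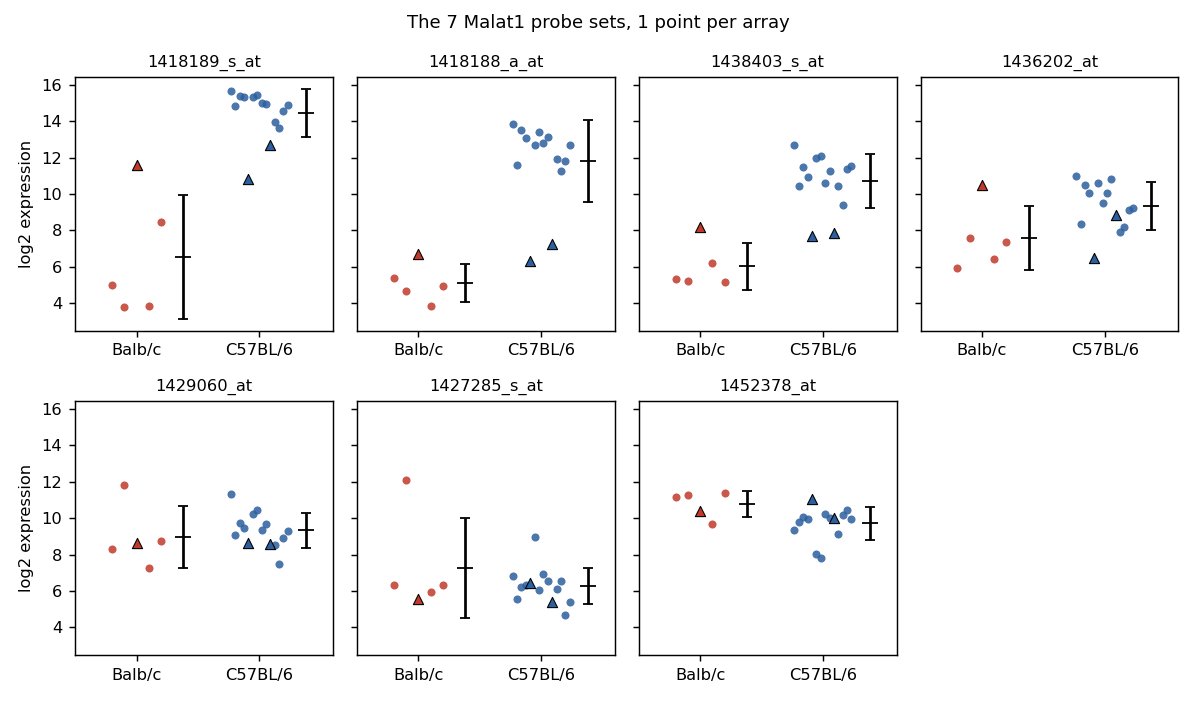
The 7 Malat1 probe sets (log2), with 1 point per array, Balb/c in red and C57BL/6 in blue, triangles for the 3 arrays between the strains, and mean ± SD as bars. The first 3 panels show Balb/c arrays far below most C57BL/6 arrays, with C57BL/6 200-1 and 400-1 below the other 12 in each, while in the last 2 the Balb/c mean is the higher one.

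Meg3, from the imprinted domain, was at 8.27, 7.72, 11.94, 7.50 and 8.10 in Balb/c 100-1, 100-2, 200-1, 400-1 and 400-2. In C57BL/6 its lowest array was at 8.61, the median at 10.96 and the highest at 11.80. It therefore split Balb/c, with 4 arrays below every C57BL/6 array and Balb/c 200-1 above every one. Means were 8.71 ± 1.84 (SD, n = 5) and 10.74 ± 0.85 (SD, n = 14), a difference of −2.25 ± 0.54 (SE). As deposited the difference was −2.03, the value tested (limma adjusted p = 0.00734). The same exact permutation test gave p = 0.0730. With the number format as a block the difference as deposited was −2.26 (limma adjusted p = 0.0832), and with Balb/c 100-2 and 400-1 left out, whose columns had the fewest distinct values, it was −1.30 (limma adjusted p = 0.165).

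Of the 11 Meg3 probe sets 8 were called lower and 3 were not, and 0 were called higher. The largest difference was that of 1452905_at, which was at 8.39, 6.74, 12.95, 6.56 and 7.70 in Balb/c and from 10.30 over a median of 12.75 to 14.14 in C57BL/6. Balb/c 200-1 alone reached the C57BL/6 range. The difference was −4.19 ± 0.79 (SE; limma adjusted p = 0.00111). The other 7 called sets differed by −3.41 to −1.84. The uncalled sets were 1452906_at at −0.33, 1436713_s_at at 0.04 and 1426758_s_at at 0.05. 1452906_at stood at 10.44 to 11.34 in Balb/c and 10.42 to 11.65 in C57BL/6, so the uncalled sets were not all dim.

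Snhg11 was at 8.47, 6.78, 8.49, 7.91 and 8.25 in Balb/c 100-1, 100-2, 200-1, 400-1 and 400-2. In C57BL/6 it ran from 8.54 over a median of 9.54 to 10.40. All 5 Balb/c arrays lay below all 14 C57BL/6 arrays, the nearest being 8.49 and 8.54, as was true of 0.418% of all genes. The difference was −1.68 ± 0.32 (SE). As deposited it was −1.46, the value tested (limma adjusted p = 0.00201, exact permutation p = 0.00258). It came from 1434292_at, which differed by −2.80 ± 0.51 (limma adjusted p = 0.00122), while 1437311_at differed by −0.62 ± 0.36 (limma adjusted p = 0.445). In 1437311_at the array Balb/c 100-2 was at 7.72 and the other 4 Balb/c arrays at 10.53 to 10.71, within the C57BL/6 range of 9.60 to 11.08. In 1434292_at the highest Balb/c array, at 6.41, lay above the lowest C57BL/6 array, at 6.29. Neither probe set alone therefore separated the strains. With the number format as a block Snhg11 differed by −1.42 as deposited (limma adjusted p = 0.0675).

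Rian, Meg3's neighbour, was higher in Balb/c. It was at 10.66, 11.47, 10.27, 10.60 and 11.11 in Balb/c 100-1, 100-2, 200-1, 400-1 and 400-2, and from 9.48 over a median of 9.86 to 10.77 in C57BL/6. The Balb/c arrays were all higher than the C57BL/6 mean, and 2 were above every C57BL/6 array. The difference was 0.62 ± 0.24 (SE). As deposited it was 0.84, the value tested (limma adjusted p = 0.0110, exact permutation p = 0.00869). Without Balb/c 100-2 the limma adjusted p was 0.0512, and with the number format as a block it was 0.276. Of the 4 probe sets only 1452899_at was called, at 8.36, 10.33, 7.76, 8.69 and 8.94 in Balb/c and 6.23 to 8.73 in C57BL/6. Its difference was 1.44 ± 0.41 (SE; limma adjusted p = 0.00403). The brightest, 1427580_a_at, was at 14.21 to 14.72 in Balb/c and 14.00 to 14.57 in C57BL/6, a difference of 0.04.

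Mirg was at 7.54, 7.41, 7.64, 8.10 and 7.22 in Balb/c 100-1, 100-2, 200-1, 400-1 and 400-2, and from 7.26 over a median of 7.66 to 8.42 in C57BL/6. The strains overlapped almost fully. The difference was −0.37 ± 0.22 (SE). As deposited it was −0.15, the value tested (limma adjusted p = 0.608, exact permutation p = 0.391). The Mirg probe sets lay on either side of the median probe set, 1440097_at at 0.12 and 1457030_at at −0.93. The 3 long noncoding RNAs of the imprinted domain thus stood at −2.25 (Meg3), −0.37 (Mirg) and 0.62 (Rian). The differences between these genes were not tested.

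Neat1 was at 8.54, 8.53, 8.60, 8.90 and 8.56 in Balb/c 100-1, 100-2, 200-1, 400-1 and 400-2, and from 7.62 over a median of 8.10 to 8.69 in C57BL/6. Each Balb/c array exceeded the C57BL/6 mean, and 1 lay above every C57BL/6 array. The difference was 0.27 ± 0.20 (SE). As deposited it was 0.49, short of the threshold in the fit over all genes (limma adjusted p = 0.0616). The exact permutation test of the single value, as deposited and unadjusted, gave p = 0.00275. Without C57BL/6 100-1 or without C57BL/6 200-1 the limma adjusted p was 0.0439 and 0.0457. It was 0.160 without Balb/c 400-1, 0.119 under quantile normalisation and 0.188 under median centring and range scaling. With the number format as a block Neat1 differed by 0.30 as deposited (limma adjusted p = 0.499). The probe sets differed by 0.20 (1428083_at) and 0.27 (1442881_at), and neither was called. Neat1 thus lay on the other side of the median gene from its chromosome neighbour Malat1.

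**Figure D3:**
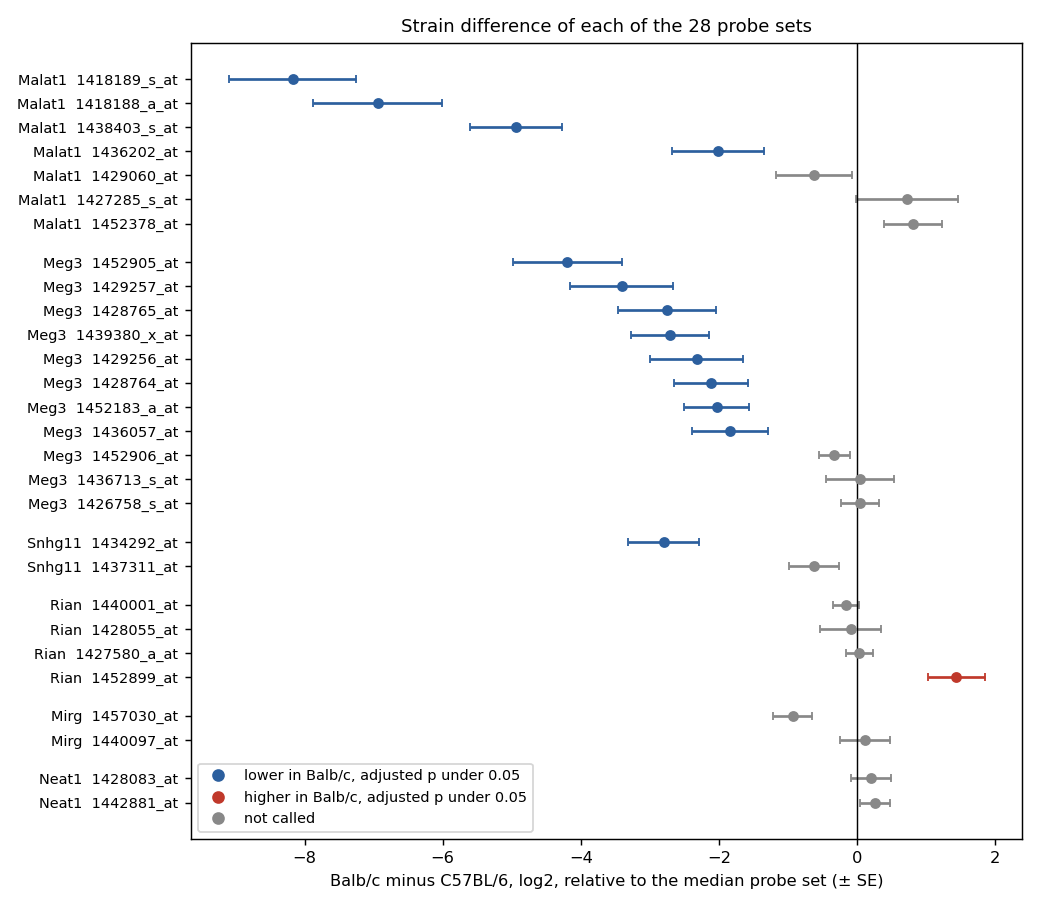
Difference between strains (Balb/c minus C57BL/6, log2, relative to the median probe set, ± SE) of the 28 probe sets, grouped by gene and coloured by call. The 13 sets called lower belong to Malat1, Meg3 and Snhg11, the 1 called higher to Rian, and each of these 4 genes also has sets that were not called.

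Over the array 32.9% of probe sets were called. Over the 28 probe sets of these genes 13 were called lower, against 11.6% of all probe sets, and 1 higher, against 21.3%, while 14 were not called. With the number format as a block 3 were called, against 1.87% of all probe sets, and these were the Malat1 sets 1418188_a_at, 1418189_s_at and 1438403_s_at (limma adjusted p = 0.0267, 0.0110 and 0.0276). Of the 28, 0 separated all Balb/c from all C57BL/6 arrays, as 1.2% of all probe sets did.

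In C57BL/6 the mean of each of the 6 genes was lower in pools of 400 dendrites than in pools of 100, though not in each subset of arrays. A lower mean at 400 was found in 9671 of all 18193 genes. No gene or probe set of the array passed the test for pool size (0% called in each comparison). For the slope 850 genes had an unadjusted limma p under 0.05, and 1246 for 400 against 100 dendrites. Meg3 was at 11.38 ± 0.31 (SD, n = 4) in pools of 100, 10.85 ± 0.64 (n = 5) in pools of 200 and 10.12 ± 0.99 (n = 5) in pools of 400. All 5 pools of 400, from 8.61 to 10.91, lay below all 4 pools of 100, from 11.13 to 11.80. The difference between 400 and 100 was −1.26 ± 0.44 (SE; limma adjusted p = 0.610, unadjusted p = 0.0147).

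Snhg11 was at 9.90 ± 0.34, 9.52 ± 0.62 and 8.99 ± 0.45 in pools of 100, 200 and 400, and here too all 5 pools of 400 (8.57 to 9.54) lay below all 4 pools of 100 (9.63 to 10.40). This order held in 1.64% of all genes. The difference was −0.91 ± 0.29 (SE; limma adjusted p = 0.549, unadjusted p = 0.00911). Malat1 was at 10.43 ± 0.66, 9.96 ± 1.28 and 9.50 ± 0.72, with overlap between the sizes, and differed by −0.92 ± 0.41 (limma adjusted p = 0.721, unadjusted p = 0.0426). An unadjusted p under 0.05 with a lower value at 400 was found in these 3 of the 6 genes and in 3.64% of all genes. Within the short-format columns the unadjusted limma p was 0.0288 for Meg3, 0.0686 for Snhg11 and 0.168 for Malat1. That of Malat1 also rose to 0.151, 0.0790, 0.0953, 0.0884 and 0.0717 without C57BL/6 100-1, 100-3, 400-1, 400-2 and 400-3.

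Rian, Mirg and Neat1 differed by −0.30 ± 0.25, −0.24 ± 0.29 and −0.08 ± 0.25 (SE). Of the 28 probe sets 24 had a lower mean at 400 than at 100, and the median of their differences was −0.94 against −0.04 over all probe sets. In 3 probe sets, 1428764_at and 1429257_at of Meg3 and 1434292_at of Snhg11, all pools of 400 lay below all pools of 100, against 1.61% of all probe sets. The probe sets of a gene read 1 RNA and are not independent. Within the short-format columns Meg3 differed by −1.37 ± 0.54, Snhg11 by −0.71 ± 0.35, Malat1 by −0.56 ± 0.38 and Rian by −0.55 ± 0.25, while Mirg (0.06 ± 0.30) and Neat1 (0.20 ± 0.27) were on the other side of 0.

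In Balb/c the sizes did not order Malat1, which was at 5.95 and 7.57 in pools of 100, 8.66 in the pool of 200 and 6.18 and 7.36 in pools of 400. The slope per doubling of dendrites, fitted over both strains, was −0.32 ± 0.25 (SE) for Malat1, −0.47 ± 0.28 for Meg3, −0.25 ± 0.17 for Snhg11, −0.14 ± 0.13 for Rian, −0.05 ± 0.12 for Mirg and 0.01 ± 0.11 for Neat1. The slopes were not shown to differ between strains in any of the 6 (limma adjusted p = 0.9999 for each, 690 genes with an unadjusted p under 0.05). The smallest unadjusted p was 0.0536, for Snhg11, whose slope was 0.68 ± 0.33 higher in Balb/c.

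**Figure D4:**
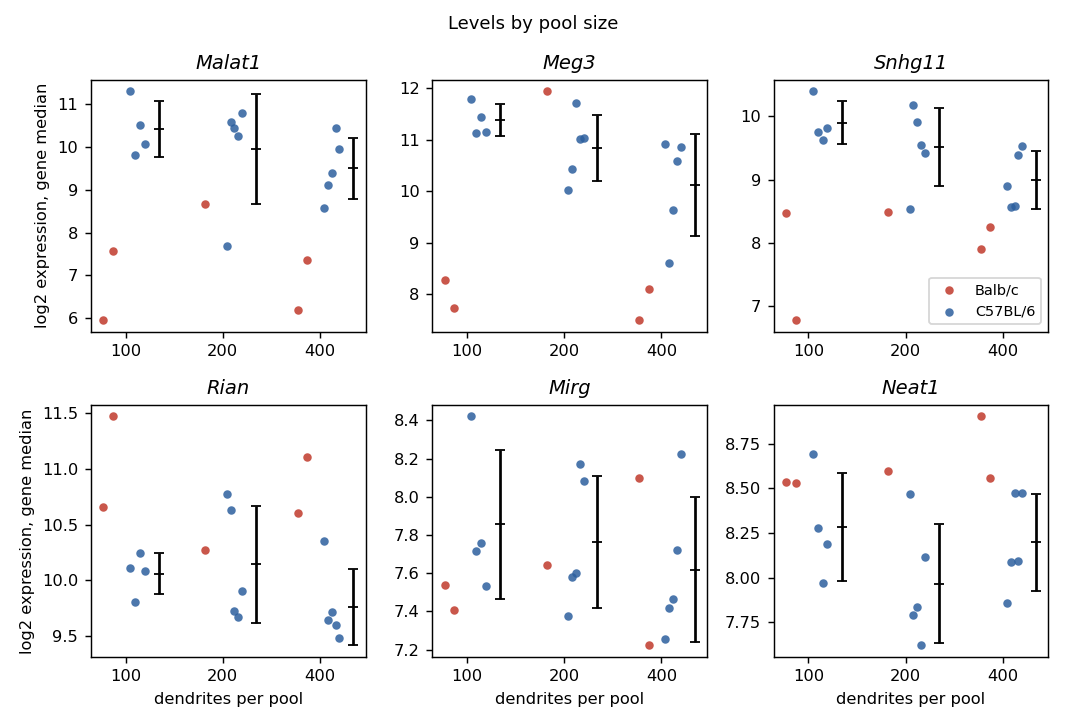
Gene values (log2) of the 6 long noncoding RNAs by number of dendrites per pool, with 1 point per array, Balb/c in red, C57BL/6 in blue, and mean ± SD of the C57BL/6 pools as bars (each panel has its own vertical axis). The C57BL/6 mean of each gene is lower at 400 than at 100 dendrites, most so for Meg3 (−1.26), and 0 of the 6 genes passed the test.

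Malat1 and Meg3 each varied with Snhg11 among the 14 C57BL/6 arrays. Of the 15 pairs of genes 3 passed after Benjamini-Hochberg adjustment over the pairs (permutation test, 100000 resamples, two-sided). Malat1 and Snhg11 had r = 0.824 (adjusted p = 0.00375) and rho = 0.732 (adjusted p = 0.0280), and r = 0.800 without the 2 arrays farthest from the Malat1 median. Meg3 and Snhg11 had r = 0.767 (adjusted p = 0.00757) and rho = 0.745 (adjusted p = 0.0280), and r = 0.628 without the 2 farthest. Malat1 and Mirg had r = 0.693 (adjusted p = 0.0273) and rho = 0.714 (adjusted p = 0.0280), and r = 0.614 without the 2 farthest. With the 2 arrays farthest from the median of each pair's first gene left out, 2 of the 15 pairs passed.

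In these arrays Snhg11 had a gap, since C57BL/6 200-1, 400-1, 400-2 and 400-3 were at 8.54 to 8.89 and the other 10 at 9.39 to 10.40. Within the 10 short-format columns the pairs stood at r = 0.796, 0.786 and 0.425, and 0 of the 15 pairs passed. Malat1 and Meg3 had r = 0.577 over 14 arrays (permutation p = 0.0338, adjusted p = 0.101) and 0.805 over the 10. Neat1 and Rian were in none of the pairs that passed, with r between −0.11 and 0.23 for Neat1 and between −0.37 and 0.06 for Rian to the other 5. Within the 10 short-format columns these r ran from −0.51 to −0.06 for Neat1 and from −0.38 to 0.55 for Rian. Over the 14 arrays the r of Neat1 to Malat1 was −0.11 (permutation p = 0.707, adjusted p = 0.952). Within the imprinted domain Meg3 had r = 0.505 to Mirg (adjusted p = 0.159) and 0.056 to Rian (adjusted p = 0.952). Pool size and number format are shared by arrays in these correlations. How often pairs of other genes vary together as closely over these arrays was not analysed. The correlations are therefore not shown to be particular to the 6 genes.

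**Figure D5:**
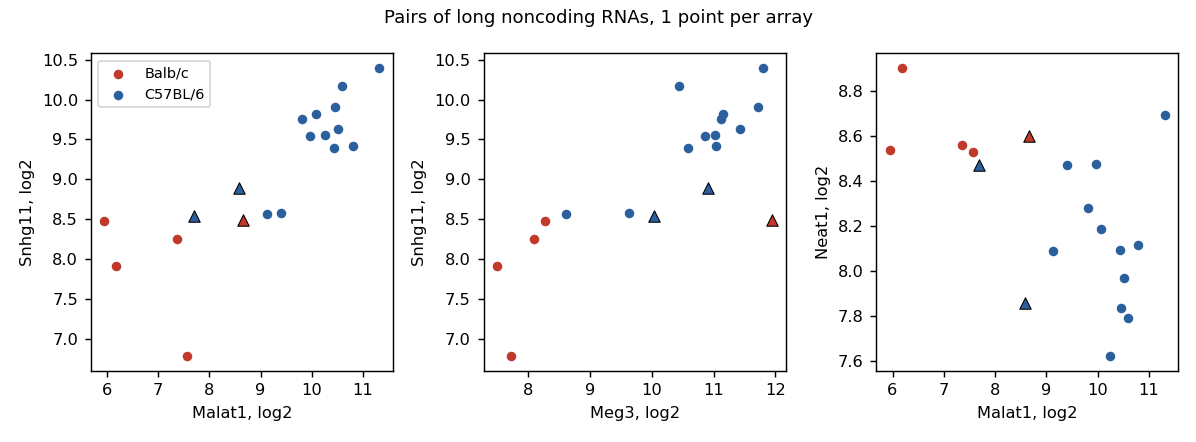
Gene values (log2) of 3 pairs of long noncoding RNAs, with 1 point per array, Balb/c in red, C57BL/6 in blue and triangles for the 3 arrays between the strains. Malat1 and Meg3 each vary with Snhg11 over the C57BL/6 arrays (r = 0.824 and 0.767), and Malat1 and Neat1 do not (r = −0.11).

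The 3 genes of the array whose values followed each RNA most closely over the 14 C57BL/6 arrays were found by Pearson r, as a description. For Malat1 they were Nucb2 (r = 0.93), which encodes the secreted protein nesfatin's precursor, Ccnl1 (0.92), a cyclin of nuclear speckles, and E330034G19Rik (0.88). For Meg3 they were Tenm2 (0.92), a synaptic adhesion protein, Pisd-ps3 (0.88) and Nisch (0.83). For Snhg11 they were Exoc6b (0.84), a subunit of the exocyst, Slc5a3 (0.83), the inositol transporter, and Btaf1 (0.83).

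For Rian they were Slc4a8 (0.91), a bicarbonate transporter of neurons, Zim3 (0.88) and Hdac7 (0.87), a histone deacetylase. For Mirg they were Dancr (0.88), itself a small nucleolar RNA host gene, Usp15 (0.86) and 1700063H04Rik (0.84). For Neat1 they were Tmem125 (0.81), Poldip2 (0.80) and Usp27x (0.80). Of these 18 genes Nucb2 (−1.61), Tenm2 (−1.17), Slc5a3 (−1.20) and Usp27x (−1.28) were called lower in Balb/c, and Slc4a8 (0.67), Zim3 (0.31), Hdac7 (0.52) and Tmem125 (0.33) higher, all relative to the median gene, against 32.5% of all genes called. With the number format as a block Usp27x alone of the 18 was called (limma adjusted p = 0.0233).

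The mRNAs of proteins that share nuclear bodies with Malat1 and Neat1 were set beside them by counts, against 11.4% of all genes called lower and 21.1% higher. The arrays did not measure protein. Of 18 measured mRNAs of paraspeckle proteins, the partners of Neat1, 6 were called lower in Balb/c and 0 higher (1 and 0 with the number format block). Their median was −0.72 against 0 over all genes. Hnrnpk, which encodes an RNA-binding protein, differed by −2.82 ± 0.38 (SE), Hnrnpa1 by −2.36 ± 0.40 and Taf15 by −1.82 ± 0.40. The mRNAs of the core proteins, Nono (−0.09), Sfpq (−0.64) and Pspc1 (−0.80), were not called. Of 23 mRNAs of nuclear speckle proteins, the neighbours of Malat1, 6 were called lower and 5 higher (0 and 1 with the block, median −0.13). U2af1 (1.64) and Srrm1 (0.97), which act in splicing, were higher, and Clk1 (−2.80), a kinase of splicing factors, was lower.

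Of 11 genes of the polycomb repressive complex 2, which Meg3 has been reported to bind, 2 were called lower and 2 higher (0 and 0 with the block, median −0.23). Rbbp7 differed by −3.03, Phf1 by −2.15 and Aebp2 by 0.81. Of 4 measured protein-coding genes in or near the Dlk1-Dio3 domain 0 were called lower and 1 higher, Wars at 0.36, which was not called with the block. The paternally expressed Dlk1 was at −1.50 ± 0.59 (SE; limma adjusted p = 0.0964). Of 38 other long noncoding RNAs 9 were called lower and 5 higher (2 and 0 with the block, median −0.23). The host genes Snhg8 (−2.98), Zfas1 (−2.46) and Snhg6 (−2.78) had the smallest p, and Ftx, a regulator of X inactivation, had a larger difference (−3.27). Of 22 mRNAs known from dendrites 9 were called lower and 4 higher (1 and 0 with the block, median −0.73), and those of smallest p were Eef1a1 at −3.64, Kcna1 at −2.01 and Adcy1 at −1.61.

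Markers of cell types gave the following beside these results, to be read against 11.4% of all genes called lower and 21.1% higher. With the number format as a block 1 pyramidal neuron marker and 1 interneuron marker were called lower, 1 microglia marker higher, and 0 of the others. Of 8 measured pyramidal neuron markers 3 were called lower in Balb/c and 1 higher, and their mean level ran from 7.14 to 8.35 in Balb/c and from 7.63 to 8.79 in C57BL/6. Those lower were Crym (−4.20), Neurod6 (−2.45) and Tbr1 (−1.57), and Camk2a (0.47) was higher. Of 9 interneuron markers 3 were lower and 1 higher, with mean levels of 7.21 to 7.60 and 7.46 to 8.46. For the 9 astrocyte markers the counts were 1 and 0 (6.42 to 7.56 and 6.38 to 7.38), for the 9 of the oligodendrocyte lineage 0 and 3 (6.48 to 6.96 and 6.24 to 6.67), for the 9 of microglia 0 and 3 (7.03 to 7.42 and 6.11 to 7.19) and for the 6 of endothelium 0 and 2 (6.02 to 8.07 and 6.45 to 7.47). These levels were not set against background and do not show that a cell type was present, and their part in the differences was not tested.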

How the data were processed

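Expression of dendrite pools was measured on 19 Affymetrix mouse arrays, after several rounds of RNA amplification. Per probe set the authors deposited a log2 expression value made with RMA (the submitters' processing notes give version 2.0), and base 2 was inferred from the range of 2.12 to 16.0. Of 45101 probe sets, 64 controls were left out. Probe sets with 1 symbol in the platform annotation were combined per gene by their median, with no filter on dim genes. No genome build is named for that annotation. No 2 columns were copies (highest correlation 0.951).

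Strains, pool size (slope per doubling, strain as covariate), their interaction, and 400 against 100 dendrites within C57BL/6 were tested with limma 3.58.1 (R 4.3.3), adjusted by Benjamini-Hochberg over all genes or all probe sets at 0.05. Single genes were checked by exact permutation and correlations by 100000 permutations (numpy 2.4.6, scipy 1.17.1). Fits were tested on simulated data. Alternatives were other scalings, gene values, batch terms, tests and sets of arrays. The precision of arrays is set by their number. Members, gene lists and the naming rule (the 6 genes and their probe sets, the 3 genes nearest to each by r, and up to 3 genes of smallest p per list) were chosen with earlier results of these data known. Nono, Sfpq, Pspc1, Camk2a and Ftx were named outside this rule, after their values were seen. Replicate numbers did not pair the strains.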

Additional observations from a re-analysis of the deposited data

Results flagged for a closer look

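Outliers were sought among the 5 Balb/c arrays and among the C57BL/6 arrays of each pool size, in groups of 4 or 5 arrays. A gene or probe set was singled out where 1 array lay apart from the others by more than Dixon's critical value. This held for 16 of 136 groups tested, where chance gives about 1 in 20, and 7 of the 16 lay in Balb/c. Groups of a gene and of its probe sets share values, so the 136 are not independent.

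At the gene level there were 4. Malat1 was at 7.70 in C57BL/6 200-1 against 10.25 to 10.80 in the other pools of 200. Meg3 was at 11.94 in Balb/c 200-1 against 7.50 to 8.27 in the other Balb/c arrays. Rian was at 10.35 in C57BL/6 400-1 against 9.48 to 9.72 in the other pools of 400. Neat1 was at 8.90 in Balb/c 400-1 against 8.53 to 8.60 in the other Balb/c arrays.

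Among the probe sets, C57BL/6 200-1 was low for 1418188_a_at (6.30) and 1418189_s_at (10.82) of Malat1 and for 1452905_at of Meg3 (10.45). C57BL/6 400-1 was low for 1418188_a_at (7.25). Balb/c 200-1 was high for 1429257_at (12.19) and 1452905_at (12.95) of Meg3 and low for 1427580_a_at of Rian (14.21). Balb/c 100-2 was high for 1427285_s_at of Malat1 (12.13) and low for 1437311_at of Snhg11 (7.72). C57BL/6 200-3 was high for 1426758_s_at (9.11) and 1439380_x_at (15.20) of Meg3, and C57BL/6 100-4 was high for 1437311_at of Snhg11 (10.83). The 3 arrays treated as lying between the strains gave 10 of the 16 values.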

How the results depend on the processing

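The 3 genes lower in Balb/c became 0 with the number format as a block, within the long-format columns alone and with the replicate block. The long-format columns alone gave the same differences as the number format block. The count became 1 (Malat1) without Balb/c 100-2 and 400-1. It became 2 with the probe set of highest mean, without ambiguous probe sets, in pools of 400 alone and by the exact permutation test. It stayed 3 (range 3 to 3) when each array was left out in turn. The 1 gene higher in Balb/c became 0 under the 4 alternatives that left 0 or 1 lower gene. It also became 0 with the probe set of highest mean, and in pools of 100 or of 400 alone. It became 2 with the methods' t-test and with the exact permutation test, and ranged from 0 (without Balb/c 100-2) to 2 (without C57BL/6 100-1 or 200-1) when 1 array was left out. The 14 called probe sets became 3 with the number format as a block, 4 without Balb/c 100-2 and 400-1 and 0 with the replicate block, and ranged from 11 to 16 when 1 array was left out. The count of 3 correlated pairs became 2 without the 2 arrays farthest from the median of the first gene, and 0 in the short-format columns. The replicate numbers did not pair the strains (correlations of deviations from −0.189 to 0.0714), so the replicate block gave only the counts above, with Malat1 at −2.16, Meg3 at −1.79, Snhg11 at −1.25 and Rian at 0.69. As deposited, the difference of Malat1 went from −0.27 (ambiguous probe sets left out) to −7.92 (probe set of highest mean), and that of Snhg11 to −0.37 and of Rian to 0.29 with the probe set of highest mean. Rian was at 1.58 without ambiguous probe sets. In pools of 100 alone Meg3 was at −3.38 and Snhg11 at −2.28, and in pools of 400 alone Snhg11 was at −0.91 (limma adjusted p = 0.125). For 400 against 100 dendrites, Mirg became 0.06 in the short-format columns, and Neat1 0.20 there, 0.05 without C57BL/6 100-1 and 0.0005 without 400-1. Values near 0 turned sign. The Mirg difference became 0.37 with the probe set of highest mean and 0.0431 in pools of 400. With the probe set of highest mean the pool size slope became 0.19 for Snhg11 and 0.0555 for Rian. The Mirg slope became 0.0054 in the short-format columns and, with 1 array left out, ranged from −0.115 to 0.00753 (without C57BL/6 100-1). The Neat1 slope became −0.0314 in C57BL/6 alone and ranged from −0.0197 to 0.0646 when 1 array was left out. The causes were not tested. Alternatives on the short-format columns for pool size, on 400 against 100 dendrites, on the interaction, and 2 array sets and the replicate block for probe sets were chosen after seeing the data.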
